A study of Mus musculus with 6 samples.

Results

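The 10 genes described here encode 2 membrane-bound transcription factors, Creb3l1 and Creb3l2, and 8 components of COPII, the protein coat that forms transport vesicles on the endoplasmic reticulum (ER). They were chosen by name, and all 10 were found among the 23358 genes of the deposited count table and were abundant enough to test. The RNA came from the calvaria (skull vault) of mice 2 to 3 days old, after 20 minutes of digestion in collagenase type II (2 mg/ml) with trypsin (0.005%). There were 3 libraries labelled as an Ezh2 conditional knockout (cKO; numbered 8, 10 and 37) and 3 labelled wild type (WT; numbered 14, 27 and 29). Ezh2 is the histone methyltransferase of Polycomb repression. Osx, written in the labels of both groups, stands for the osteoblast factor osterix, now named Sp7. Not given in the labels are the deleted exons of Ezh2, the driver construct in full, its presence in the wild type mice, and whether each library came from 1 animal. The p-values therefore rest on how these 6 libraries vary, which may be technical in part.

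Osteoblasts secrete large amounts of collagen, whose export from the ER depends on COPII. The GTPase Sar1 (Sar1a or Sar1b) starts a vesicle by inserting into the ER membrane. It recruits Sec23 bound to Sec24, which form the inner coat, where Sec23 stimulates Sar1 to hydrolyse GTP and Sec24 binds cargo. Sec31 with Sec13 then builds the outer cage. Creb3l1 (also called OASIS) and Creb3l2 (BBF2H7) sit in the ER membrane until they are carried to the Golgi and cut, which frees a bZIP domain that enters the nucleus. Creb3l1 is known to promote type I collagen transcription in osteoblasts, and Creb3l2 to promote Sec23a transcription in chondrocytes. Inherited defects of CREB3L1 or SEC24D cause brittle bones in people, and those of SEC23A a syndrome of the skull and sutures.

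Promoter sequences were taken from RefSeq (GRCm38.p6, the assembly of mm10), as the 250 bases before the annotated start. Entries matched for 9 of the 10 genes, all but Creb3l1. The bZIP factors of this family bind relatives of the cAMP response element, so the 6 letters TGACGT were searched on both strands. They were found in 5 of the 9 windows, against 6.47% of all 32851 promoter windows and 7.68% of the 21233 windows with 46% to 70.4% GC, the range of the 9. The window of Sec24d is shown whole because it holds the longer match TGACGTGG, the core of the unfolded protein response element, which includes TGACGT and overlaps CCACG on the other strand. That match lay 26 to 19 bases before the start, and 0.563% of all windows hold these 8 letters. Among the 9 genes, only for Sec24d were bases past the start not found in GENCODE transcripts, so these distances hold for the RefSeq start. For the other 4 genes only the stretch around the match is shown. Capitals mark the matched letters on either strand, and each sequence runs 5′ to 3′ on the strand of its gene.
Sec24d (chr3:123267246-123267495, plus strand): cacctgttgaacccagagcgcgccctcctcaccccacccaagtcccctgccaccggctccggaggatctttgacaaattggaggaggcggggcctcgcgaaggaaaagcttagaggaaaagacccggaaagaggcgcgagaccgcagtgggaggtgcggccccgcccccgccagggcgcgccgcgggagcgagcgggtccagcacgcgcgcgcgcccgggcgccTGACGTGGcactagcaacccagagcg
Creb3l2 (chr6:37442319-37442364, minus strand): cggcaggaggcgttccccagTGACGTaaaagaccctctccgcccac
Sec23b (chr2:144556200-144556228, plus strand): tagagcatggcgccgcgaaaTGACGTttc
Sec24a (chr11:51756995-51757084, minus strand): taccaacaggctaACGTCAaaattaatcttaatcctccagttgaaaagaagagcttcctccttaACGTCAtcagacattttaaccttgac
Sar1a (chr10:61680166-61680211, plus strand): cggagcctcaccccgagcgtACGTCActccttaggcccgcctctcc
The match lay 9 to 4 bases before the start in Sec23b, 99 to 94 in Sar1a and 196 to 191 in Creb3l2, and Sec24a held a pair of them. The full palindrome TGACGTCA, which holds TGACGT on both strands, was in none of the 9 windows and in 1.55% of all windows. The 6-letter match was not in the windows of Sec23a, Sec24c, Sec31a or Sar1b. A match describes letters only and says nothing on its own of binding.

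The libraries held between 60449016 and 95439578 counts in genes, with the 3 WT libraries at 68260154 or more and the 3 cKO libraries at 71748348 or fewer. Ezh2 itself was 20.7, 21.7 and 20.4 CPM (read counts scaled to library size) in WT 14, 27 and 29, and 19.2, 20.6 and 19.8 in cKO 8, 10 and 37 (log2 fold change -0.07 ± 0.07, adjusted p = 0.507). Whole-gene counts do not show the deletion, so they do not check the labels, and cKO means the libraries labelled so. Among markers of the tissue, the osteoblast genes Runx2 and Sp7 were at 271 ± 9.52 and 224 ± 26.9 CPM in WT (mean ± SD, n = 3). Bulk RNA cannot tell fewer cells of a type from less RNA per cell.

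All 10 genes had a lower mean in cKO, and 4 of them fell past an adjusted p of 0.05: Creb3l1, Sec23b, Sec24d and Sec31a. Over all 16089 tested genes, 12.4% passed in either direction with 6.45% lower and 5.96% higher in cKO; none of the 10 genes was higher by edgeR. The libraries of the 2 groups did not overlap, with cKO lower, in 7 of the 10 genes, against 17.4% of all tested genes. A log2 fold change below 0 was seen in 48.7% of all tested genes. The median log2 fold change (cKO over WT) was -0.22 for the 10 genes and 0.0074 for all tested genes. DESeq2 called 6 of the 10 genes lower, against 1396 of 14411 over the transcriptome, and limma voom 4, against 914 of 16089. Neither called one of the 10 genes higher. WT 29, the deepest library, was the highest library for 9 of the 10 genes, and cKO 37 the lowest for 6. The count of genes that fell depended on single libraries: it was 1 without WT 29, 2 without WT 14, cKO 8 or cKO 10, and 5 without WT 27 or cKO 37.

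**Figure D1:**
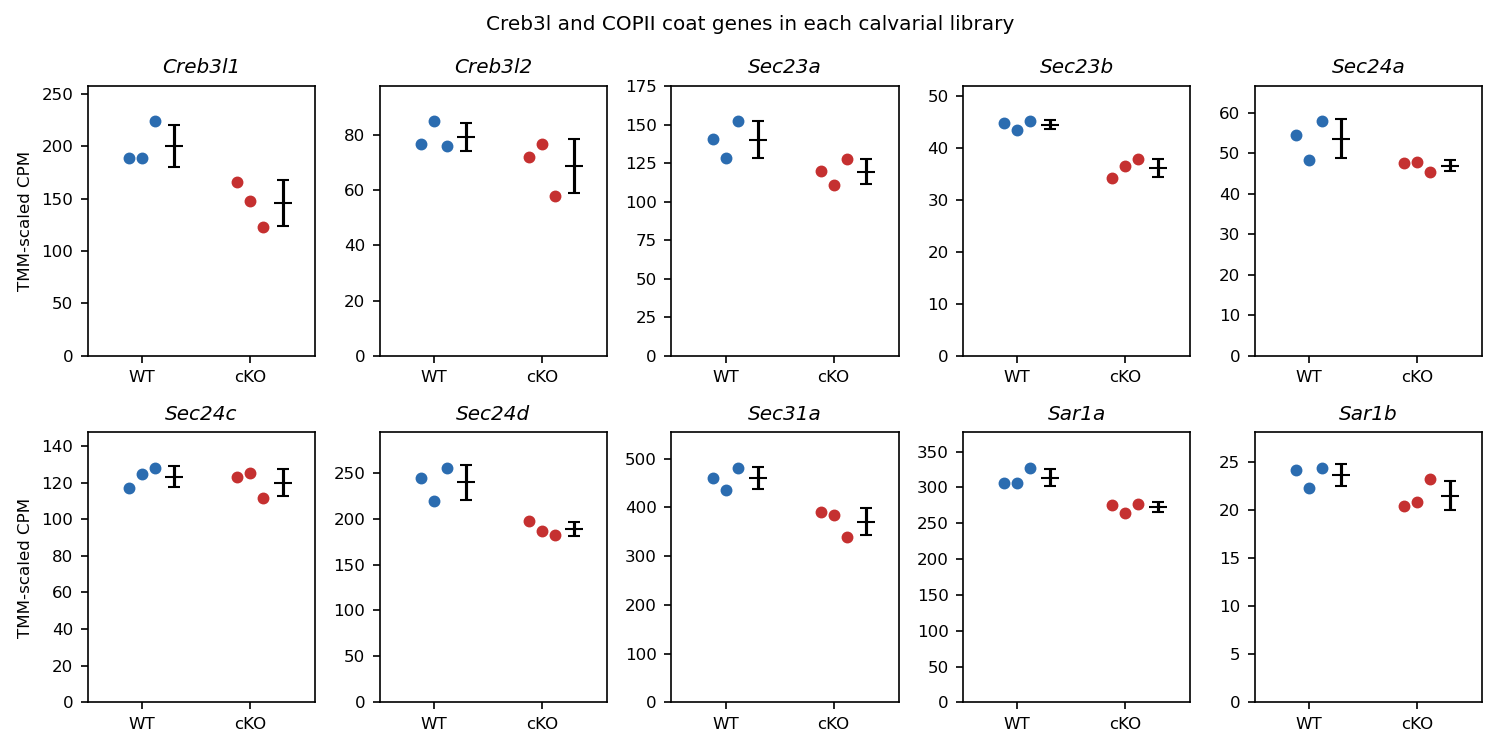
TMM-scaled CPM (y axis, from 0, own scale per panel) of the 10 genes in each library (blue points WT, red points cKO; libraries in label order from left to right), with the group mean and SD beside them (horizontal mark and bar, n = 3 per group). The red points lie below all blue points in 7 panels and overlap them in those of Creb3l2, Sec24c and Sar1b.

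Creb3l1 (chr2:91982328-92024170), the collagen-promoting factor of osteoblasts, had the largest log2 fold change of the 10 (with GC content and gene length corrected for, that of Sec23b was larger, -0.39). It was 188, 189 and 224 CPM in WT 14, 27 and 29, and 166, 148 and 123 CPM in cKO 8, 10 and 37. The highest cKO library thus stayed below the lowest WT library, while the spread within cKO was wide (coefficient of variation 15%). The means of 200.2 ± 20.4 and 146 ± 21.8 CPM correspond to a fold change of 0.727 (log2 -0.46 ± 0.11, SE, 95% confidence interval -0.72 to -0.20, adjusted p = 0.0354). Of all tested genes, 4.02% had a log2 fold change this low or lower. Omitting WT 14, WT 27, WT 29 or cKO 10 ended the call (adjusted p = 0.0596, 0.0592, 0.0973 and 0.0831). The log2 fold changes there were -0.50, -0.51, -0.37 and -0.48, of which only that without WT 29 was smaller in size than with all libraries. The call was also lost when GC content and gene length were corrected for (log2 -0.36, adjusted p = 0.0953). Col1a1, the main collagen gene of bone, was 72765, 71852 and 99704 CPM in WT 14, 27 and 29 and 67856, 59175 and 44382 CPM in cKO 8, 10 and 37. For Col1a1, as for Creb3l1, WT 29 was the highest library and cKO 37 the lowest. The same held for Sec24d, Sec31a and the early response gene Egr1, and also for Sec24a, Sec24c and Col1a2, which did not pass. The difference of Col1a1 did not pass (log2 -0.51 ± 0.20, adjusted p = 0.115), nor did that of Col1a2 (-0.25 ± 0.17, adjusted p = 0.359).

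Creb3l2 (chr6:37331021-37442148), the paralog known from cartilage, did not pass. It was 76.6, 84.9 and 76.0 CPM in WT 14, 27 and 29 and 71.8, 76.6 and 57.8 CPM in cKO 8, 10 and 37. The groups overlapped at WT 14, WT 29 and cKO 10, and cKO 37 stood apart below the rest (log2 -0.20 ± 0.10, 95% confidence interval -0.42 to 0.02, adjusted p = 0.207). The summed level of 12 cartilage markers, Col2a1 and Acan among them, also varied widely, from 621 to 2169 RPKM (read counts scaled to gene length and library size) in WT and from 353 to 1643 in cKO. WT 27 was the highest library and cKO 37 the lowest for both that sum and Creb3l2, but the others did not follow: WT 14 had a sum of 621 and cKO 8 one of 1443.5, while Creb3l2 was higher in WT 14. The part of cartilage cells in the value was not tested. The Creb3l1 to Creb3l2 ratio, as log2 of CPM, was 1.34 ± 0.21 in WT and 1.08 ± 0.13 in cKO, a difference of -0.25 (two-sided exact permutation test, p = 0.2, adjusted p = 0.4 over 4 pairs of relatives). With 3 libraries against 3 this exact permutation test cannot go below p = 0.1, so it settles neither that the 2 factors differ in response nor that they are alike. Of the other 5 genes of this family and its Golgi proteases (Creb3, Creb3l3, Creb3l4, Mbtps1 and Mbtps2), edgeR, DESeq2 and limma voom called none. At an unadjusted p under 0.05 there were 3 of 5 with edgeR, against 29.1% of all tested genes, where Mbtps2, the site-2 protease, was nearest to the threshold (0.20 ± 0.07, adjusted p = 0.0784).

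In the inner coat, both Sec23 genes were lower in all 3 cKO libraries, and the less abundant one passed. Sec23b (chr2:144556229-144590753), whose human counterpart is mutated in a congenital anaemia, was 44.8, 43.5 and 45.2 CPM in WT 14, 27 and 29 and 34.3, 36.5 and 37.8 CPM in cKO 8, 10 and 37. The coefficient of variation in WT was 2.03%, and the gap between the groups was larger than either spread. The fall was 0.30 ± 0.06 on the log2 scale (adjusted p = 0.0126). The call was lost only without cKO 8 (adjusted p = 0.0594) among the alternatives run. Sec23a (chr12:58958384-59012017), the form tied to skull development, was 141, 128 and 152 CPM in WT 14, 27 and 29 and 120.2, 111 and 128 CPM in cKO 8, 10 and 37. The groups did not overlap but nearly touched, with WT 27 at 128.12 and cKO 37 at 127.65 (log2 -0.23 ± 0.08, adjusted p = 0.071). Sec23a passed with DESeq2 (adjusted p = 0.0365), without WT 27 (0.0481), without cKO 37 (0.037) and after the GC and length correction (0.0142). Per length, Sec23a made up 69.1% ± 1.43 of Sec23 RPKM in WT and 70.1% ± 1.54 in cKO, and the log2 CPM ratio of the 2 genes differed by less than its SD in either group (0.07 against 0.10 and 0.11, exact permutation p = 0.4, adjusted p = 0.4). In the annotation 431 exonic bases of Sec23a overlap Gm17529 on the other strand, and whether the counting used strand is not given in the sources used here.

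Among the cargo-binding Sec24 genes, only Sec24d passed. Sec24d (chr3:123267496-123365636), whose promoter is printed above, was 244, 219 and 255 CPM in WT 14, 27 and 29 and 197, 187 and 182 CPM in cKO 8, 10 and 37. Every cKO library lay below every WT library, and the cKO libraries lay closer together than the WT ones. Sec24d fell by 0.34 ± 0.07 on the log2 scale (95% confidence interval -0.50 to -0.19, adjusted p = 0.0132). The call was lost only without WT 29 (adjusted p = 0.0621) among the alternatives run. Sec24c (chr14:20674321-20694850), of the same subgroup of Sec24 proteins, was 117, 124 and 128 CPM in WT 14, 27 and 29 and 123, 125 and 112 CPM in cKO 8, 10 and 37. Its groups overlapped (log2 -0.04 ± 0.07, 95% confidence interval -0.18 to 0.11, adjusted p = 0.743), and the sign turned without cKO 37 (0.0069). A total of 214 exonic bases of Sec24c overlap 6230400D17Rik on the other strand. Sec24a (chr11:51692263-51756834), of the other subgroup, was 54.6, 48.4 and 58.0 CPM in WT 14, 27 and 29 and 47.6, 48.0 and 45.4 CPM in cKO 8, 10 and 37. WT 27 lay next to the cKO libraries, and the gene did not pass (log2 -0.19 ± 0.07, adjusted p = 0.106), but it did without WT 27 (0.0426) and after the GC and length correction (0.0183). Sec24b, the fourth of the family, was 76.2 ± 1.595 against 73.7 ± 2.71 CPM (adjusted p = 0.613).

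The makeup of the Sec24 family was also compared per length. Sec24d gave 54.7% ± 1.58 of summed Sec24 RPKM in WT (52.9% to 55.8%) and 49.9% ± 1.05 in cKO (48.8% to 50.9%). Sec24c gave 24.1% ± 1.46 in WT and 27.1% ± 0.902 in cKO, while Sec24b stood at 14.3% ± 0.488 and 16.0% ± 0.963 and Sec24a at 6.95% ± 0.271 and 7.06% ± 0.0663. On the scale of CPM, not per length, the log2 ratio of Sec24d to Sec24c was 1.06, 0.814 and 0.996 in WT 14, 27 and 29 and 0.68, 0.58 and 0.71 in cKO 8, 10 and 37. All 3 cKO ratios were below all WT ratios, and the difference of -0.30 was larger than the SD of either group (0.13 in WT and 0.07 in cKO). It gave the smallest p that the exact permutation test allows with 3 libraries against 3, 0.1 (adjusted p = 0.4 over the 4 pairs), so this test could not pass the threshold at any outcome.

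**Figure D2:**
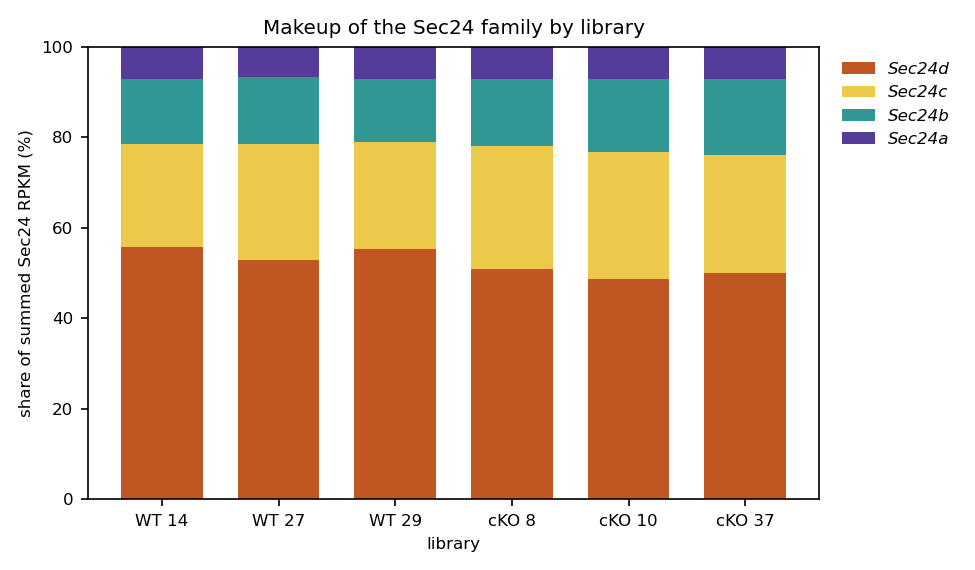
Share of each Sec24 gene in the summed RPKM of the family (y axis, percent) for each of the 6 libraries (x axis), as stacked bars from 0. The Sec24d segment at the bottom ends between 52.9% and 55.8% in WT and between 48.8% and 50.9% in cKO.

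In the outer coat, Sec31a (chr5:100361649-100416234), the cage subunit, was 461, 436 and 481 CPM in WT 14, 27 and 29 and 390.1, 384 and 338 CPM in cKO 8, 10 and 37. The lowest WT library stood well above the highest cKO library. Sec31a fell by 0.31 ± 0.08 on the log2 scale (95% confidence interval -0.48 to -0.14, adjusted p = 0.0295). That call was lost without WT 14 (adjusted p = 0.0843), WT 29 (0.109), cKO 8 (0.0716) or cKO 10 (0.0508). The log2 fold changes there were -0.31, -0.27, -0.35 and -0.34 in that order. Its partner Sec13, which also serves in the nuclear pore, fell from 130.5 ± 4.30 to 112 ± 1.51 CPM (log2 -0.22 ± 0.06, adjusted p = 0.0295). The Sec13 call was lost without the same 4 libraries, with adjusted p up to 0.119.

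The GTPases that start the coat did not pass. Sar1a (chr10:61680321-61693297) was 307, 306 and 327 CPM in WT 14, 27 and 29 and 276, 264 and 277 CPM in cKO 8, 10 and 37, with no overlap between the groups. Its difference came close to the threshold (log2 -0.20 ± 0.06, 95% confidence interval -0.34 to -0.06, adjusted p = 0.0588), and it passed with DESeq2 (0.0101) and after the GC and length correction (0.0224). Sar1b (chr11:51763663-51791953), whose human counterpart is needed to export large lipoprotein particles from the gut, was 24.1, 22.3 and 24.4 CPM in WT 14, 27 and 29 and 20.4, 20.8 and 23.2 CPM in cKO 8, 10 and 37. Here cKO 37 lay above WT 27 (log2 -0.14 ± 0.07, adjusted p = 0.248). Sar1a made up 86.5% ± 0.466 of Sar1 RPKM in WT and 85.9% ± 0.766 in cKO, and the log2 CPM ratio was 3.73 ± 0.06 and 3.67 ± 0.09 (difference -0.06, exact permutation p = 0.4, adjusted p = 0.4).

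**Figure D3:**
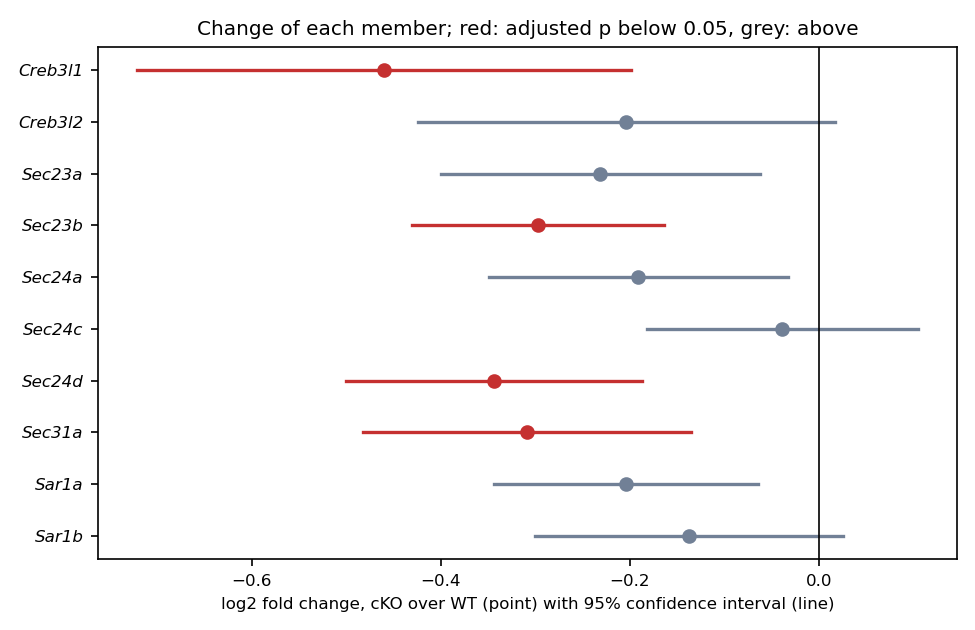
Log2 fold change, cKO over WT (x axis), of each of the 10 genes (rows), with the 95% confidence interval as a line. Red marks the 4 genes with an adjusted p under 0.05, which are Creb3l1, Sec23b, Sec24d and Sec31a, and the intervals of Creb3l2, Sec24c and Sar1b include 0.

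**Figure D4:**
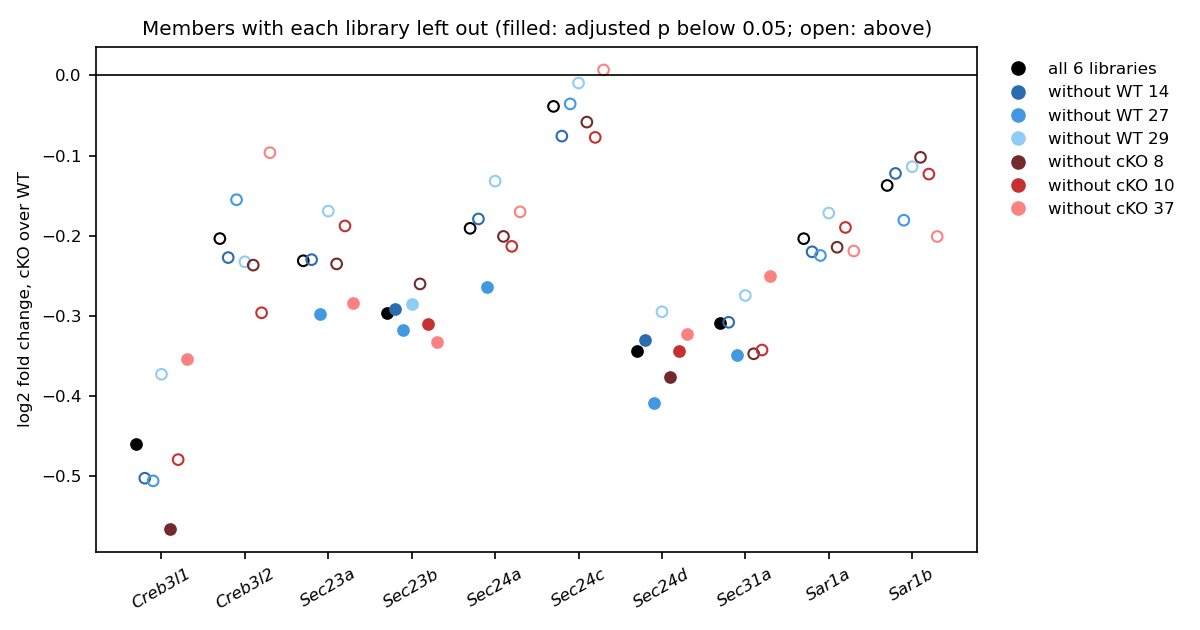
Log2 fold change, cKO over WT (y axis), of each gene (x axis) with all 6 libraries (black) and with each library left out (blue shades WT, red shades cKO). Filled points have an adjusted p under 0.05, and the only point above 0 is Sec24c without cKO 37.

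Compared per length, the 10 genes kept the same order of mean level in both groups. In WT, Sar1a was highest at 89.6 ± 3.81 RPKM, followed by Sec31a (80.7 ± 2.09), Creb3l1 (65.5 ± 5.91), Sec24d (46.0 ± 1.99) and Sec23a (25.4 ± 1.42). Sec24c (20.3 ± 1.44), Creb3l2 (17.8 ± 1.90), Sar1b (13.98 ± 0.145), Sec23b (11.3 ± 0.271) and Sec24a (5.86 ± 0.327) came next. Only Sec24c and Creb3l2 overlapped as neighbours in WT. In cKO the overlapping neighbours were Sec23a with Sec24c and Creb3l2 with Sar1b. The transcription factor Creb3l1 thus ranked among the coat genes in level, above 97.6% of all genes in the file. The 8 coat genes together summed to 293 ± 9.06 RPKM in WT and 249 ± 7.01 in cKO, 15% lower, with no overlap between the groups.

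Other genes that serve COPII at ER exit sites did not share one direction. Of 15 tested, 3 rose, 2 fell and 10 did not pass, where 5.96% of all tested genes were higher and 6.45% lower. Their median log2 fold change was 0.006. With limma voom 1 of them rose and 2 fell, where 906 of 16089 genes were higher and 914 lower. Tfg, which organises the exit site, fell with Sec13 (log2 -0.30 ± 0.06, adjusted p = 0.0146). Sec31b, the scarce relative of Sec31a, rose from 3.00 ± 0.112 to 4.76 ± 0.162 CPM (log2 0.66 ± 0.13, adjusted p = 0.00891). Sec16b, a scaffold of exit sites, rose by 0.31 ± 0.09 (adjusted p = 0.0448), and so did Klhl12, a ubiquitin ligase adaptor for Sec31 (0.24 ± 0.07, adjusted p = 0.0468), which was chosen after its value was seen. Mia3 (TANGO1), the receptor that loads collagen, was 176 ± 13.3 against 157 ± 11.6 CPM (adjusted p = 0.177). Sec31b passed under all 15 alternatives run. Tfg was lost without WT 29 or cKO 8 (adjusted p up to 0.0674), and Sec16b with limma voom and without any library but cKO 37 (up to 0.168). Klhl12 was lost without any 1 of the 6 libraries, with RLE scaling (0.0501), with limma voom and after the GC and length correction (up to 0.156).

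In the lists for the other secretory steps, every gene that passed with edgeR was lower. Of 25 cargo receptors between ER and Golgi, 5 fell and 20 did not pass (median -0.10). The members that fell include the KDEL receptors Kdelr3 (-0.28 ± 0.06) and Kdelr2 (-0.28 ± 0.06), which return ER proteins, with Ergic1 (-0.31 ± 0.08) and Surf4 (-0.25 ± 0.07; adjusted p = 0.0129, 0.0192, 0.0297 and 0.043). In the retrograde COPI coat and its Arf GTPases, 2 of 17 fell (median -0.14), the Arf activator Gbf1 by 0.52 ± 0.07 and Arf4 by 0.25 ± 0.07 (adjusted p = 0.00261 and 0.041). Of 25 tethering and fusion genes 3 fell (median -0.06), the Golgi stacking protein Gorasp1 by 0.42 ± 0.07 (adjusted p = 0.00576), Gorasp2 by 0.26 ± 0.07 and Rab6a by 0.21 ± 0.06 (adjusted p = 0.0423 and 0.0377). At entry to the ER, 3 of 25 fell (median -0.14), Srprb, a subunit of the signal recognition particle receptor, by 0.43 ± 0.06, Srp54a by 0.46 ± 0.11 and the signal peptidase subunit Spcs2 by 0.24 ± 0.06 (adjusted p = 0.00261, 0.0218 and 0.0288). Srp54a has close copies, and its value is uncertain. Of 10 ER stress sensors and factors 5 fell (median -0.29), with Xbp1 (-0.49 ± 0.07), Hspa5 (-0.48 ± 0.08), Atf4 (-0.33 ± 0.06) and Atf6b (-0.36 ± 0.07; adjusted p = 0.00225, 0.00491, 0.00755 and 0.00995) first. Among 8 collagen and matrix cargo genes only the collagen chaperone Serpinh1 passed, and it fell by 0.36 ± 0.09 (adjusted p = 0.0332). DESeq2 called more of these genes lower, 7 each of the cargo receptor, COPI, ER entry and ER stress lists. Over the whole transcriptome it also called more lower, 1396 of 14411 genes against 1038 of 16089 with edgeR. Of the collagen and matrix list it called 1 gene higher, the bone sialoprotein gene Ibsp (log2 0.34, adjusted p = 0.011). Gbf1, Gorasp1, Srprb, Xbp1, Hspa5 and Atf4 passed under all 15 alternatives. Atf6b was lost only without cKO 8 (adjusted p = 0.0512). The others named here were each lost without WT 29 and also without cKO 8, with adjusted p up to 0.158, and all but Kdelr3 in further alternatives. Of the 15, Surf4 and Gorasp2 were lost in 8, Arf4 and Serpinh1 in 6, and Rab6a and Srp54a in 5. Ergic1 and Spcs2 were lost in 4 and Kdelr2 in 3. Counted over all these lists and the other COPII and Creb3 genes, 21 of 130 genes fell and 3 rose, where 6.45% of all tested genes were lower and 5.96% higher. With upper-quartile scaling these counts were 16 and 5.

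Other measures were also compared, and some of them differed between the groups. The summed ranges of WT and cKO overlapped for most marker lists. Over all tested genes, 6.45% were lower by edgeR. Of 18 early response and handling genes, such as Fos, Egr1 and Atf3, 17 fell (median -0.75), in a list that was added to the planned ones. Their summed level was 1716.5 to 1819 RPKM in WT and 935 to 1095 in cKO. Of 11 osteoclast and macrophage markers 2 fell, Acp5 and Csf1r (median -0.43), while DESeq2 called 5 lower and limma voom 4. Over the transcriptome DESeq2 called 1396 of 14411 genes lower and limma voom 914 of 16089. The summed level of these markers was 1245 to 1838 RPKM in WT and 993 to 1295 in cKO. Of 10 osteoblast markers Sp7 fell by 0.37 ± 0.09 (adjusted p = 0.0211), and their sum was 14437 to 18420 RPKM in WT and 10981 to 13276 in cKO, of which Col1a1 alone had a mean of 10956 RPKM over the 6 libraries. The osteoblast markers had a median of -0.097, and 6 of the 10 were below 0, as were 48.7% of all tested genes. Besides Sp7 and Col1a1, those were Alpl at -0.55, Bglap2 at -0.43, Runx2 at -0.11 and Bglap at -0.09 (edgeR adjusted p = 0.39, 0.432, 0.348 and 0.858). The other osteoblast markers had values above 0, namely Ibsp at 0.34 ± 0.12 (no overlap, adjusted p = 0.0745, and 0.011 with DESeq2), Phex at 0.26, Spp1 at 0.23 and Dmp1 at 0.16 (adjusted p = 0.273, 0.297 and 0.61). Of the 12 cartilage markers edgeR, DESeq2 and limma voom called none, and 0 had an unadjusted p under 0.05. Endothelial markers summed to 157 to 183 RPKM in WT and 159 to 210.3 in cKO, with Cldn5 lower. Those of muscle (5.83 to 7.02 against 6.56 to 7.85 RPKM), keratinocytes (1.70 to 2.43 against 1.42 to 2.22), erythroid cells (2.01 to 3.43 against 2.36 to 3.83) and nerve (11.1 to 19.6 against 10.4 to 14.3) were low, with Tubb3 lower and Olig2 at 0 in every library. The part of these shifts in the values of the 10 genes was not tested.

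The genes nearest to a member in profile were sought among 12448 genes, as the smallest root mean square difference of log2 CPM, centred on each gene's mean, over the 6 libraries. For Creb3l1 they were Msl3l2, Impdh1, Tmem97, Amigo3 and Chst11, at 0.059 to 0.075 log2 units, where Creb3l1 itself varied by 0.278. For Creb3l2 they were Tmem201, L3mbtl2, 4930579G24Rik, Espl1 and Dchs1 (0.0308 to 0.0348, against 0.17). For Sec24d they were Heatr5a, Kdelr2, Mat2a, Morc4 and Me2 (0.0398 to 0.0434, against 0.186). Kdelr2, the KDEL receptor named above, was the only one of these 15 that belongs to the secretory lists.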

How the data were processed

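RNA-seq of 6 calvarial libraries was analysed from 1 table. Per the submitters' processing notes, the authors used bcl2fastq, TopHat2 2.0.6, mm10 and HTSeq; the sources used here do not give annotation or strand use. The deposited counts are reads per gene and 0 of them is odd, so a read pair probably adds 2. The deposited RPKM values, scaled by the authors to gene length and a larger library total, were used to compare levels between genes. The counts were tested with edgeR 4.0.16 in R 4.3.3 (filterByExpr with a minimum count of 10, TMM scaling, robust quasi-likelihood test), and adjusted p-values are Benjamini-Hochberg values over 16089 genes, with 0.05 as threshold; an error after a log2 fold change is its standard error. The edgeR steps, but not the others, were tested on simulated data. Alternatives were RLE and upper-quartile scaling, other filters, halved counts, omission of Rn45s and erythroid genes, DESeq2 1.42.0, limma 3.58.1 (voom), an adjusted p of 0.1, omission of each library, RPKM or a pseudocount of 0.5 CPM for ratios, and, added later, a GC and length offset from annotated transcripts (15854 tested genes had a GC value). Members and lists were chosen with earlier results of these data known. All 10 members are named, with Ezh2, Col1a1, Col1a2, up to 4 called genes with the smallest p of each list, and the 5 nearest profiles of 3 members; marker and early response genes named beside them were chosen after their values were seen. Of the 50-base words in the transcripts of each member, at most 7.86% occur in other genes. No 2 libraries of a group agreed within counting noise.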

Additional observations from a re-analysis of the deposited data

How the results depend on the processing

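Leaving out 1 library changed most numbers. The total of changed genes ranged from 586 (without cKO 8) to 1985 against 1997, that of Creb3l and COPII genes from 1 to 5 against 4, and that of the related lists from 7 to 23 against 24. An adjusted p of 0.1 gave 3277 changed genes and 42 of the related lists. DESeq2 called 2569 of 14411 genes over the transcriptome and 39 of the related lists. Upper-quartile scaling moved the split of changed genes to 1191 higher and 764 lower (60.9% higher against 48%), with Creb3l1, Sec23b, Sec24d and Sec31a still lower. Of 150 recomputed fold changes of the 10 members, 11 lost their call, 8 gained one and 1 turned sign, Sec24c without cKO 37 (0.0069; range -0.0773 to 0.0069 over the omitted libraries). Ratios of relatives kept their direction throughout; the exact permutation test used for them cannot pass at this number of libraries. No paired analysis was possible because the groups share no replicate numbers. Depth limits little here, since the scarcest member, Sar1b, had at least 1220 counts per library; the spread between 3 libraries sets the errors. The causes of these changes were not tested.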

Other observations

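In the Sec31 and Sec16 pairs, relatives at ER exit sites lay on opposite sides of 0, a pattern chosen after the values were seen. The Sec23, Sar1 and Sec24 genes all lay below 0. Sec31a, the abundant cage subunit, fell while its scarce relative Sec31b rose, to 4.76 ± 0.162 CPM against 371 ± 28.4 CPM of Sec31a in cKO. Sec16a, the main exit site scaffold, was 190.3 ± 10.01 CPM in WT and 165 ± 14.4 in cKO (log2 -0.20 ± 0.08, adjusted p = 0.0974), and Sec16b was 83.3 ± 7.16 and 104 ± 11.5 CPM. Sec24b and Sec24c, with log2 fold changes of -0.05 and -0.04, lay nearest to 0 among the Sec24 genes. The differences within the Sec31 and Sec16 pairs, and between Sec24b and Sec24c, were not tested.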
